A study of Homo sapiens with 12 samples.

Results

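The 28 genes described here encode the enzymes of sterol synthesis, the proteins that control the pathway, and the central enzymes of fatty acid synthesis. They are listed by name and role, with no threshold on a measured value, though the list was drawn up with earlier results of these data known. It holds 7 mevalonate enzymes, 11 enzymes from squalene to sterol, the sterol carrier STARD4, 5 genes of SREBP control and 4 genes of fatty acid synthesis. There were 58780 gene IDs in all. The cells were HEK293, a line derived from human embryonic kidney, in its Flp-In T-REx form, and small interfering RNAs (siRNAs) were used to lower SAFB family transcripts. SAFB (protein SAFB1), SAFB2 and SLTM encode related nuclear RNA-binding proteins. Polyadenylated RNA was sequenced in 4 groups of 3 libraries. Control cells received control siRNA, SAFB1 KD cells an siRNA against SAFB, SLTM KD cells an siRNA against SLTM, and triple KD cells siRNAs against SAFB, SAFB2 and SLTM together. In the single knockdowns, negative control siRNA made up the dose, so every group had been transfected. A knockdown of SAFB2 by itself is not analysed here. The series calls the replicates biological. The p-values set differences against the spread of libraries within groups, estimated over all 12 libraries together and moderated across genes.

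Sterol synthesis builds isoprenoid units from acetyl-CoA through mevalonate, joins them into squalene, and folds and trims squalene into cholesterol. Its genes are switched on together by SREBP transcription factors, which are made as membrane-bound precursors. When sterols are low, SCAP escorts the precursors to the Golgi, where a pair of proteases frees the active fragment, and when sterols are high, INSIG proteins hold SCAP in the endoplasmic reticulum. Fatty acid synthesis shares the SREBP control and starts from the acetyl-CoA that ACLY makes from citrate.

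The libraries held 56856228 to 75533510 gene counts, and all 28 genes passed the minimum of 10 counts, with CYP51A1 the lowest at no fewer than 179 counts in any library. The unit of level is CPM, read counts per library size after TMM scaling, and means carry the SD of 3 libraries. The target transcripts moved as labelled. SAFB was at 232 ± 2.27 CPM in control, 45.3 ± 0.905 CPM in SAFB1 KD and 38.2 ± 1.57 CPM in triple KD. SLTM was at 116 ± 1.17, 20.5 ± 1.88 and 25.0 ± 2.15 CPM in control, SLTM KD and triple KD, but at 139 ± 3.19 CPM in SAFB1 KD. SAFB2 was at 126 ± 2.49 CPM in control and 29.1 ± 1.12 CPM in triple KD. It was higher in the single knockdowns, at 209 ± 3.76 CPM in SAFB1 KD and 140 ± 2.24 CPM in SLTM KD. Of 6 genes known from HEK293 cells, LIN28B and NEFL were high (172 and 195 CPM in control cells) and GATA3 stood at 29.7 CPM. PAX2 (4.66 CPM) and NEFM (1.71 CPM) were low, and PAX8 was near 0 (0.0444 CPM). The summed level of the 6, mostly LIN28B and NEFL, ran from 397 to 408 CPM in control cells and from 306 to 315 CPM in triple KD. Its part in the results below was not tested. Summed markers of leukocytes stayed at or below 0.41 CPM, those of fibroblasts lay at 13.8 to 15.5 CPM, those of squamous epithelium at 3.8 to 4.64 CPM, and those of colon epithelium at 27.7 to 33.6 CPM, nearly all of it CDX2, in every library. In bulk RNA, fewer cells of a type and less RNA per cell cannot be told apart.

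Promoter windows from RefSeq (GRCh38.p14, 250 bases before to 50 bases after each start) were found for 24 of the 28 genes. The SREBP site of the form TCACNCCAC (N for any base), searched on both strands, was in the window of 1 member, SREBF2, and in 1.13% of all 35116 windows. The CCAAT box, bound by NF-Y, a usual partner of SREBP, was in windows of 18 members and in 34.6% of all windows. The GC box GGGCGG was in windows of 23 members and in 45.0% of all, and the E-box CACGTG in those of 4 members and in 7.26% of all. Some genes have more than 1 window, and members were counted once if any of theirs held the letters. The background shares count each window separately, so the member counts and these shares are not strictly comparable. A match describes letters only. The stretches below show the SREBP site of SREBF2 and a CCAAT box of the pair of members furthest below control in triple KD (MSMO1 and STARD4) and of 2 members above it (INSIG1 and HMGCS1), with the motif in capitals. ATTGG is CCAAT read on the other strand. They lie at chr22:41832962-41832990 (plus strand), chr4:165327625-165327649 (plus), chr5:111512651-111512675 (minus), chr7:155297698-155297722 (plus) and chr5:43313553-43313577 (minus), all upstream of the start site.
SREBF2: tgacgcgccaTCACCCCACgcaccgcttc
MSMO1: ctctcgcaggCCAATaacgacagga
STARD4: cccgcgccagCCAATccgaacaagc
INSIG1: ccggcctcccATTGGttgcggccgc
HMGCS1: tttccttttgATTGGtagaagccgg

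Triple KD against control asks how the pathway's transcripts stand when the whole family is lowered. The genes moved in both directions. By edgeR's quasi-likelihood test and Benjamini-Hochberg adjusted p-values over the 26688 genes tested, 9 of 28 were called higher and 13 lower at an adjusted p under 0.05, and 6 were not called. Over all genes tested, 19.4% were called higher and 20.9% lower. Since the 28 genes are well expressed, the fairer background is the 13989 genes at 1 CPM or more, of which 30.1% were called higher and 35.2% lower, against 32.1% and 46.4% of the 28. The share called higher was therefore close to that of expressed genes in general, and the share called lower stood above it, a difference that was not tested. Most of the 28 stood well above 1 CPM, and no background matched for level was used. The median log2 fold change was -0.04 over the 28, -0.02 over genes at 1 CPM or more and -0.004 over all genes. The range over the 28 ran from -0.89 (MSMO1) to 0.33 (SCAP). Summed over the 28 genes, the level was 4390 to 4420 CPM in control cells and 4320 to 4390 CPM in triple KD.

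**Figure D1:**
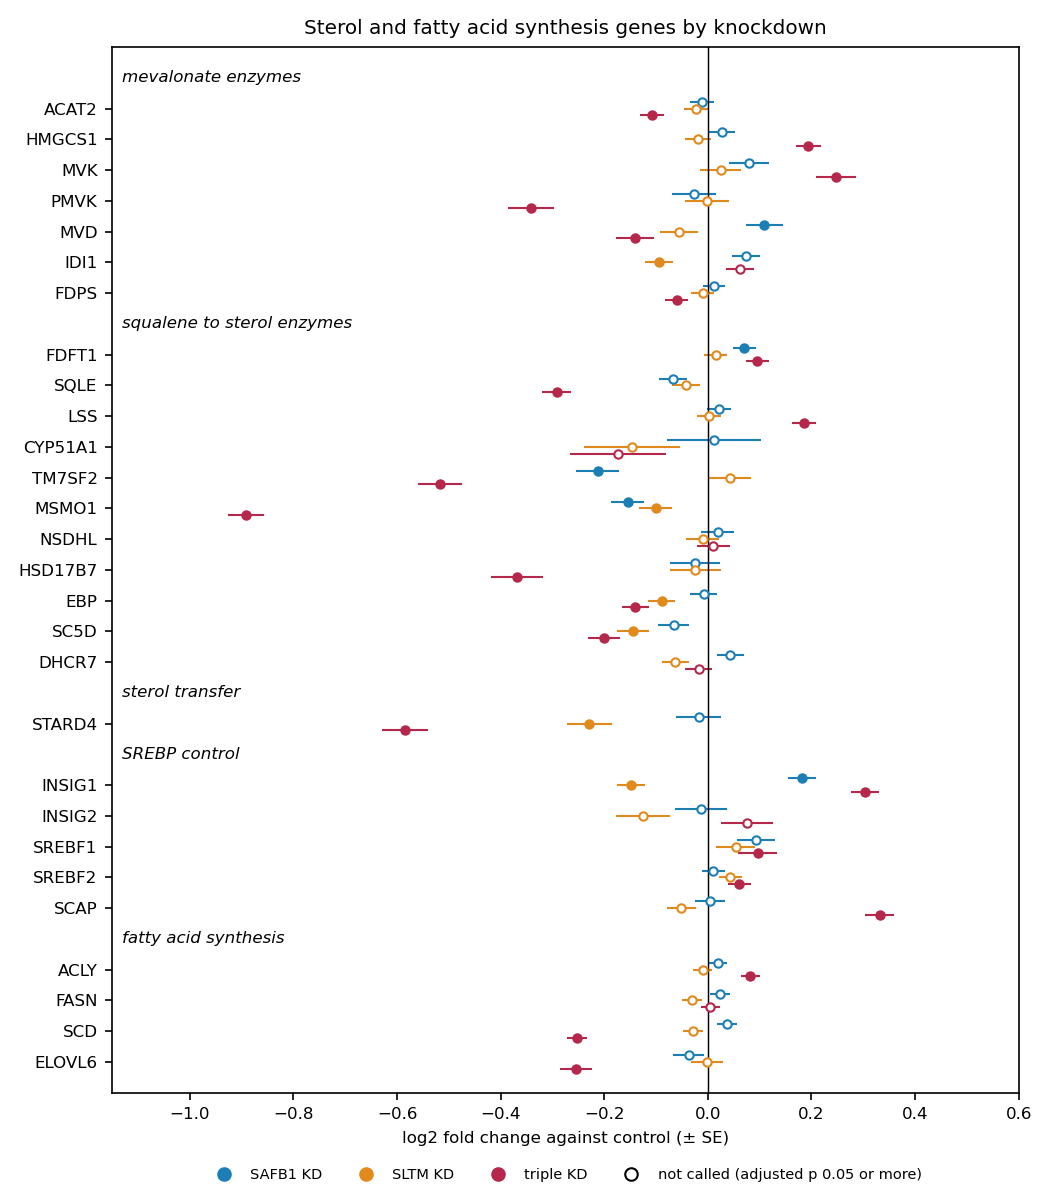
Log2 fold change against control (x axis) of each of the 28 genes (y axis, grouped by role) in SAFB1 KD, SLTM KD and triple KD, with bars for the standard error of the fit; filled points were called and open points were not. MSMO1 lies furthest left in triple KD at -0.89, and the called genes of SREBP control in triple KD all lie right of 0.

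Of the 7 mevalonate enzymes, 2 rose and 4 fell in triple KD. HMGCS1, which condenses acetyl-CoA units into the precursor of mevalonate, stood at 123, 124 and 123 CPM in control cells and at 142, 143 and 137 CPM in triple KD. All 3 triple KD libraries lay above all 9 others, and the log2 fold change was 0.19 ± 0.0246 (SE, adjusted p = 8.21e-10). MVK, the kinase that acts on mevalonate, stood at 25.0, 27.5 and 26.6 CPM in control cells and at 32.3, 31.7 and 30.0 CPM in triple KD (log2 fold change 0.25 ± 0.0385, adjusted p = 1.47e-07). The next kinase in the chain, PMVK, went the other way. Its control libraries stood at 23.8, 24.1 and 22.6 CPM and its triple KD libraries at 19.6, 17.8 and 18.4 CPM, with no overlap (-0.34 ± 0.0441, adjusted p = 1.35e-09). MVD, which makes isopentenyl diphosphate, fell by 0.14 on the log2 scale (adjusted p = 0.00119), and ACAT2, the thiolase at the entry, fell by 0.11 (adjusted p = 8.14e-05). FDPS, which makes farnesyl diphosphate, was lower by the least, -0.06 (adjusted p = 0.0215), and lost its call under 6 of 20 alternative settings. IDI1, the isomerase, stood at 0.06 with an adjusted p of 0.0563 and gained a call under 9 of the 20. So enzymes of neighbouring steps stood on either side of control, and the summed level of the 7 was 611 to 623 CPM in control cells and 612 to 623 CPM in triple KD.

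The enzymes from squalene to sterol held the largest difference of the set. MSMO1, the methylsterol monooxygenase that oxidises methyl groups off the sterol nucleus (chr4:165327667-165343164, plus strand, GRCh38), stood at 46.8, 45.1 and 47.5 CPM in control cells. In triple KD it stood at 25.5, 24.9 and 24.7 CPM, below every library of the other 3 groups. The log2 fold change was -0.89 ± 0.0346 (adjusted p = 1.55e-31), a level 46.1% lower, and it ran from -0.91 to -0.86 over the 20 alternatives. TM7SF2, a sterol reductase that acts a step earlier (chr11:65111845-65116384, plus strand), stood at 27.4, 27.2 and 29.7 CPM in control cells and at 19.2, 20.4 and 19.4 CPM in triple KD (-0.52 ± 0.0422, adjusted p = 1.64e-16). HSD17B7, the ketosteroid reductase that follows MSMO1, fell from 15.8, 15.8 and 15.1 CPM to 12.4, 11.6 and 12.3 CPM (-0.37 ± 0.0501, adjusted p = 5.85e-09). SQLE, the squalene epoxidase and a rate-limiting step, fell from 96.6, 102 and 105 CPM to 81.2, 83.6 and 83.1 CPM (-0.29 ± 0.0272, adjusted p = 2.71e-14). These 4 genes did not overlap between control and triple KD.

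Later steps moved less. SC5D, the desaturase near the end of the pathway, fell by 0.20 on the log2 scale (adjusted p = 8.98e-08), and EBP, the isomerase before it, fell by 0.14 (adjusted p = 6.95e-06). DHCR7, the reductase of the last step to cholesterol, was not called, at -0.02 with a 95% interval from -0.08 to 0.04. NSDHL, the dehydrogenase that works between MSMO1 and HSD17B7, was not called either, at 0.01 with an interval from -0.06 to 0.08. Members on both sides of NSDHL in the chain fell while its own control libraries, at 42.1 to 44.4 CPM, held its triple KD libraries within their range. Of 11 genes, 2 rose: LSS, which folds epoxidised squalene into lanosterol, from 127, 133 and 129 CPM to 147, 147 and 148 CPM (0.19 ± 0.0234, adjusted p = 7.22e-10), and FDFT1, the squalene synthase, by 0.10 (adjusted p = 2.83e-04). CYP51A1, the lanosterol demethylase, stood at 3.81 to 4.32 CPM in control cells and 3.32 to 3.87 CPM in triple KD and was not called (adjusted p = 0.139). Its level is uncertain, because 90.1% of its exon bases are also exon of another annotated gene on the same strand, ENSG00000285772, and reads that fit more than 1 gene are left out of such counts.

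STARD4, a small carrier that moves cholesterol between membranes (chr5:111496033-111512590, minus strand), was the member with the next largest difference. It stood at 40.7, 38.3 and 36.9 CPM in control cells, 39.2, 38.1 and 36.9 CPM in SAFB1 KD, 34.7, 35.2 and 28.7 CPM in SLTM KD and 26.9, 25.8 and 24.6 CPM in triple KD. The triple KD libraries lay below all 9 others, and the log2 fold change against control was -0.58 ± 0.0447 (adjusted p = 1.24e-17). The SLTM KD libraries also lay below every control library (-0.23 ± 0.0436, adjusted p = 1.06e-04), but without SLTM KD replicate 3, the lowest of them, the difference was -0.15 (adjusted p = 0.0133).

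**Figure D2:**
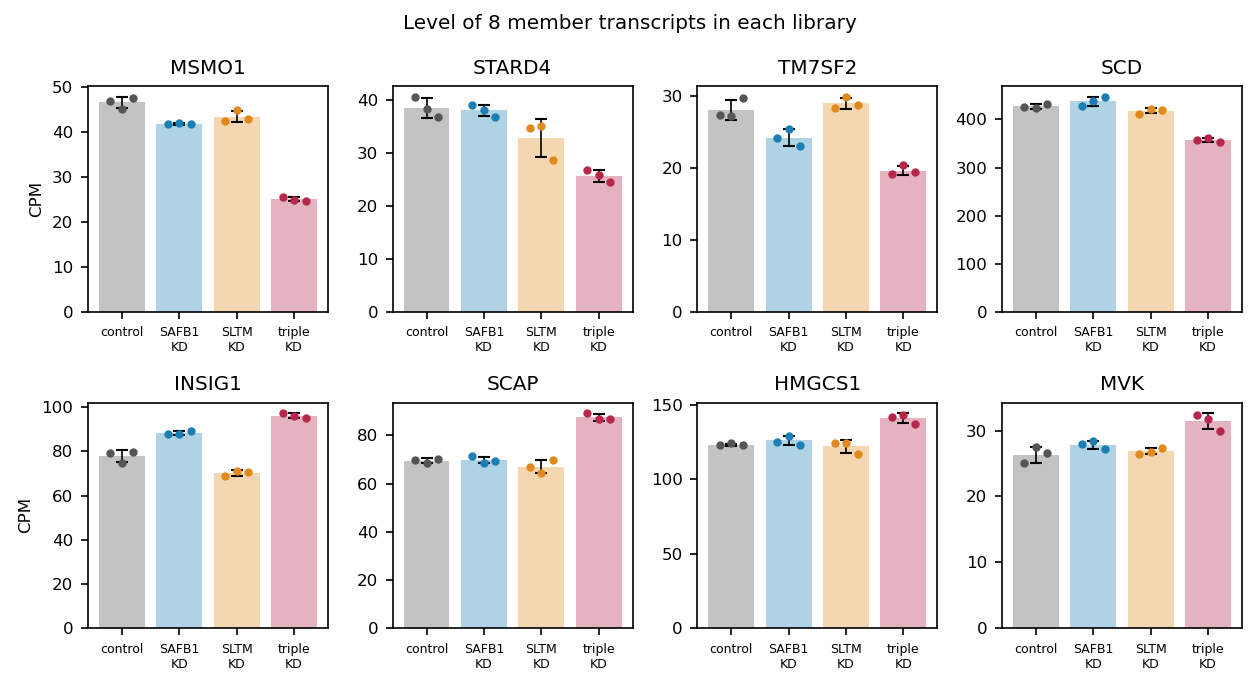
Levels in CPM (y axis, from 0, a scale for each gene) of 8 member transcripts in the 4 groups (x axis); points are libraries, bars are means and whiskers SD of 3 libraries. MSMO1, STARD4, TM7SF2 and SCD are lowest in triple KD, and INSIG1, SCAP, HMGCS1 and MVK are highest there.

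The genes of SREBP control stood on the high side in triple KD. Of 5, 4 were called higher and none lower, against 30.1% and 35.2% of genes at 1 CPM or more. The 3 triple KD libraries lay above the 3 control libraries for all 5. Libraries lay apart in most members, however, above control for 10 of the 28 and below it for 13. How often they lay apart over all genes was not counted, so this is not a trait of the 5. SCAP, the escort of the SREBP precursors (chr3:47413681-47477126, minus strand), stood at 70.0, 68.4 and 70.2 CPM in control cells and at 89.2, 86.7 and 86.7 CPM in triple KD (0.33 ± 0.0277, adjusted p = 4.24e-16), with SAFB1 KD at 68.4 to 71.3 CPM and SLTM KD at 64.5 to 69.8 CPM. INSIG1, which retains SCAP and is itself a target gene of SREBP (chr7:155297776-155310235, plus strand), split the groups further. Its libraries stood at 79.3, 74.7 and 79.9 CPM in control cells, at 87.8, 88.0 and 89.4 CPM in SAFB1 KD, at 68.8, 71.4 and 70.7 CPM in SLTM KD and at 97.3, 96.1 and 95.1 CPM in triple KD. No group overlapped another: SLTM KD was lowest, then control, then SAFB1 KD, then triple KD. Against control the log2 fold change was 0.30 ± 0.0265 in triple KD (adjusted p = 2.52e-15), 0.18 ± 0.0267 in SAFB1 KD (adjusted p = 6.7e-07) and -0.15 ± 0.0273 in SLTM KD (adjusted p = 5.74e-05). SREBF1 and SREBF2, which encode the SREBP precursors, were higher in triple KD by 0.10 (adjusted p = 0.0319) and 0.06 (adjusted p = 0.0223), and lost those calls under 5 and 4 of 20 alternatives. INSIG2, the relative of INSIG1 that is not driven by SREBP in the same way, was not called (0.08, 95% interval from -0.04 to 0.19).

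Transcripts of the proteins that cut SREBP differed by more than any of the 28. Their list was drawn up with earlier results of these data known. Of 7 genes for SREBP processing and INSIG turnover, 5 rose and 2 fell in triple KD. Of genes at 1 CPM or more, 30.1% rose and 35.2% fell. MBTPS1, the Golgi serine protease that makes the initial cut in SREBP, stood at 88.5, 90.6 and 89.1 CPM in control cells, near 99 CPM in both single knockdowns, and at 206, 212 and 202 CPM in triple KD (log2 fold change 1.21 ± 0.0236, adjusted p = 2.17e-47). MBTPS2, the membrane metalloprotease that makes the following cut, stood at 72.3, 75.9 and 74.5 CPM in control cells and at 22.2, 22.8 and 22.4 CPM in triple KD (-1.73 ± 0.0341, adjusted p = 4.29e-47). The transcripts of the 2 proteases thus moved in opposite directions. In SAFB1 KD the same directions were seen at a smaller size, 0.15 for MBTPS1 (adjusted p = 9.42e-06) and -0.19 for MBTPS2 (adjusted p = 4.17e-06), and in SLTM KD they were 0.14 (adjusted p = 2e-05) and -0.09 (adjusted p = 0.0425). The latter was not called without SLTM KD replicate 3 (-0.06, adjusted p = 0.283). The triple KD change less both single ones was 0.92 for MBTPS1 (adjusted p = 8.96e-32) and -1.45 for MBTPS2 (adjusted p = 3.85e-35). The study ascribes the fall of MBTPS2 in human cells to a retrogene on its strand, YY2, which disturbs splicing and ends transcripts early. That account was not tested here.

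SPRING1, a partner that MBTPS1 needs in order to mature, stood at 84.7, 86.7 and 86.3 CPM in control cells, at 95.4, 101 and 101 CPM in SAFB1 KD, at 80.0, 79.0 and 77.2 CPM in SLTM KD and at 113, 114 and 112 CPM in triple KD. This is the same order of groups as for INSIG1. Against control it was 0.40 in triple KD (adjusted p = 5.74e-21), 0.21 in SAFB1 KD (adjusted p = 1.02e-08) and -0.13 in SLTM KD (adjusted p = 4.16e-04). ERLIN2, a membrane scaffold of degradation in the endoplasmic reticulum, stood at 123, 127 and 123 CPM in control cells, 86.7, 86.3 and 83.8 CPM in SAFB1 KD, 124, 126 and 120 CPM in SLTM KD and 70.6, 71.5 and 71.0 CPM in triple KD. Against control it was at -0.81 in triple KD (adjusted p = 2.29e-36) and at -0.54 in SAFB1 KD (adjusted p = 3.29e-26). The ubiquitin ligase gene RNF139 (0.33) and the ERLIN2 partner ERLIN1 (0.17), named after their values were seen, were also called higher in triple KD.

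**Figure D3:**
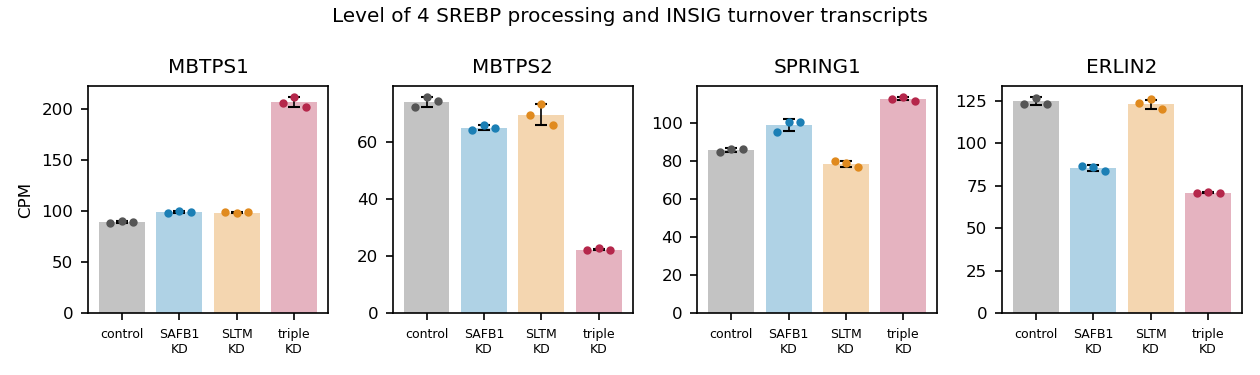
Levels in CPM (y axis, from 0, a scale for each gene) of MBTPS1, MBTPS2, SPRING1 and ERLIN2 in the 4 groups (x axis); points are libraries, bars are means and whiskers SD of 3 libraries. MBTPS1 is highest in triple KD at 207 CPM and MBTPS2 lowest there at 22.4 CPM.

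Of the 4 fatty acid synthesis genes, 1 rose and 2 fell in triple KD. FASN, the synthase itself and the most abundant transcript of the set, stood at 1430, 1450 and 1420 CPM in control cells and at 1450, 1450 and 1420 CPM in triple KD. It was not called, at 0.005 with a 95% interval from -0.04 to 0.05. ACLY, which supplies acetyl-CoA, rose from 666, 667 and 671 CPM to 713, 709 and 699 CPM, a log2 fold change of only 0.08 ± 0.0179 (adjusted p = 1.03e-04). SCD, the desaturase that makes monounsaturated fatty acids, fell from 425, 423 and 432 CPM to 358, 362 and 354 CPM (-0.25 ± 0.0193, adjusted p = 1.13e-17). ELOVL6, which lengthens saturated and monounsaturated chains, fell from 58.5, 58.4 and 55.6 CPM to 47.5, 48.1 and 48.9 CPM (-0.25 ± 0.0309, adjusted p = 2.27e-10). SCD and ELOVL6, the genes of this list for steps after FASN, were lower, while the libraries of the synthase itself overlapped. Not all desaturase genes were lower. FADS1 and FADS2, named after their values were seen, were higher in triple KD. Their mean levels were 65.2 and 68.2 CPM in control cells and 70.1 and 77.5 CPM in triple KD. In the wider list of acyl-CoA supply, elongation and desaturation, 4 genes rose and 11 fell.

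Genes around the pathway were counted in the same way, against 30.1% called higher and 35.2% called lower of genes at 1 CPM or more. Differences of the lists from these shares were not tested. Of 20 genes of acyl-CoA supply, elongation and desaturation, 4 rose and 11 fell in triple KD, with the smallest adjusted p for ELOVL2, an elongase of polyunsaturated chains (-0.93, adjusted p = 6.83e-31), SCD5, the relative of SCD (-0.67, adjusted p = 1.34e-27), and ME1, a malic enzyme that supplies NADPH (-0.57, adjusted p = 1.62e-26). Of 12 enzymes on the isoprenoid branches, 3 rose and 6 fell, among them GGPS1, which makes geranylgeranyl diphosphate (0.46), PDSS2, which builds the side chain of coenzyme Q (-0.58), and ICMT, which methylates prenylated proteins (-0.26). Of 11 genes of sterol transport, storage and efflux, 4 rose and 3 fell. Those with the smallest adjusted p were NR1H2, the liver X receptor beta (0.23), GRAMD1A, a sterol transporter (-0.17), and SOAT1, which esterifies cholesterol (-0.16). ABCG1, a sterol efflux transporter named after its value was seen, differed the most in this list, at 5.1 ± 0.175 CPM in control cells and 3.76 ± 0.199 CPM in triple KD (-0.44, adjusted p = 1.05e-05). Of 8 genes of glycerolipid assembly, 2 rose and 4 fell, including AGPAT1 (-0.61), DGAT1 (-0.25) and GPAM (-0.17), acyltransferases of triglyceride and phospholipid synthesis. Of 12 genes of fatty acid oxidation, 3 rose and 7 fell, including the carnitine enzyme CPT2 (-0.36), the nuclear receptor PPARA (-0.38) and the dehydrogenase ACADM (-0.23). The median log2 fold change of these 5 lists lay between -0.12 and 0.005, against -0.02 over genes at 1 CPM or more and -0.004 over all genes.

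**Figure D4:**
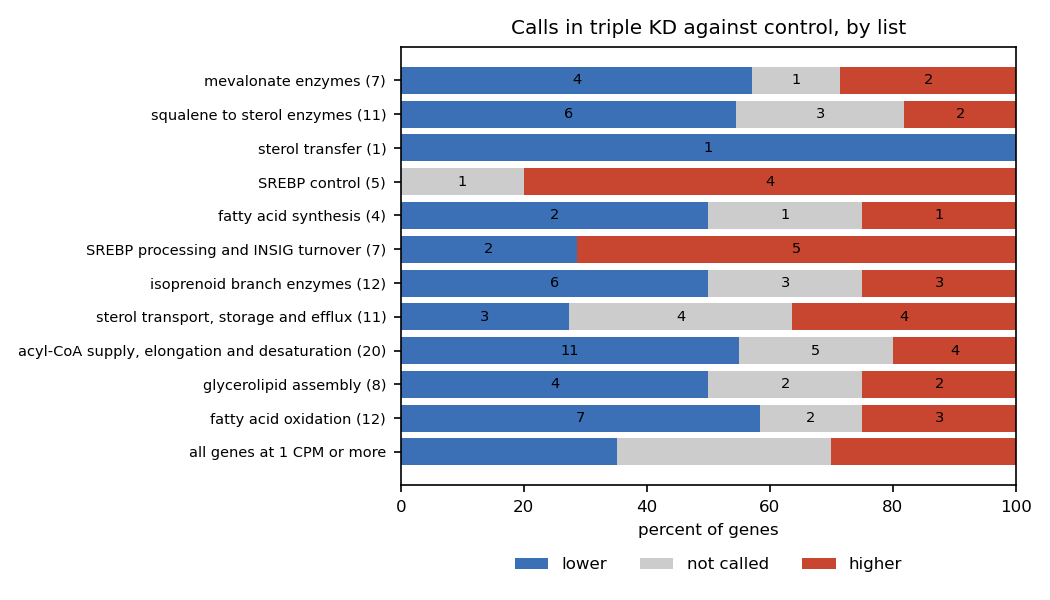
Percent of genes (x axis) called lower, not called and called higher in triple KD against control, for each list with its number of genes (y axis) and for all genes at 1 CPM or more; numbers in the bars are genes. SREBP control is the list with no gene called lower, and the bottom bar shows 35.2% lower and 30.1% higher.

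The single knockdowns changed few of the 28, and few genes in general. In SAFB1 KD 3 were called higher and 2 lower, 10.7% and 7.14% of the 28. These shares are near the 9.24% and 8.11% of genes at 1 CPM or more (5.04% and 4.62% of all genes tested). The lower ones were TM7SF2 (24.2, 25.4 and 23.1 CPM, log2 fold change -0.21, adjusted p = 1.31e-04) and MSMO1 (41.6, 42.0 and 41.6 CPM, -0.16, adjusted p = 4.71e-04), neither overlapping control. The higher ones were INSIG1, MVD (0.11, adjusted p = 0.0426) and FDFT1 (0.07, adjusted p = 0.0313). The last 2 lost their calls when any of several libraries was left out, MVD among others without control replicate 3 (adjusted p = 0.256) and FDFT1 without control replicate 2 (adjusted p = 0.244). MVD is the member whose called directions in SAFB1 KD and triple KD were opposite.

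In SLTM KD none of the 28 was called higher and 6 were called lower, 21.4% of the 28. Of all genes tested, 3.6% were called higher and 5.65% lower, and of genes at 1 CPM or more 6.2% and 10.4%. The difference from these shares was not tested. The lean of all genes towards lower calls (38.9% of calls were higher) turned under upper-quartile scaling (57.5% higher), where 3 members were called lower. At an unadjusted p under 0.05 there were 8 members. The same held for 5265 of 26688 genes tested and 4359 of 13989 genes at 1 CPM or more. No alternative gave a member a higher call. The 6 were STARD4, INSIG1, SC5D (57.3, 56.5 and 53.6 CPM against 61.7, 62.4 and 61.0 CPM in control cells, -0.14, adjusted p = 5.36e-04), IDI1 (-0.09, adjusted p = 0.0147), EBP (-0.09, adjusted p = 0.018) and MSMO1 (42.3, 44.7 and 42.9 CPM, -0.10, adjusted p = 0.0357). The calls of IDI1, EBP and MSMO1 were lost under upper-quartile scaling (adjusted p = 0.0618, 0.0759 and 0.0988) and when single libraries were left out, such as SLTM KD replicate 1 for IDI1 and MSMO1 (adjusted p = 0.184 for each) and SLTM KD replicate 2 for EBP (adjusted p = 0.135). Those of STARD4, INSIG1 and SC5D held under all 20 alternatives.

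Compared directly, SAFB1 KD was above SLTM KD for 8 of the 28 and below it for 1, against 9.27% and 6.78% of all genes tested and 17.1% and 11.4% of genes at 1 CPM or more. The lean of the background turned with the scaling: over all genes 57.8% of calls were higher in SAFB1 KD, and 43.2% under upper-quartile scaling, which left 5 of the 8 members. INSIG1 differed by 0.33 ± 0.0273 (adjusted p = 4.56e-15), IDI1 by 0.17 (adjusted p = 2.9e-06), STARD4 by 0.21 (adjusted p = 2.57e-04), MVD by 0.16 (adjusted p = 7.34e-04) and DHCR7 by 0.11 (adjusted p = 0.00223). The other 3 higher ones, SCD, EBP and FASN, differed by 0.06 to 0.08 and lost their calls under 3, 5 and 13 of 20 alternatives. Without SAFB1 KD replicate 1 EBP stood at 0.04 (adjusted p = 0.392), without SLTM KD replicate 2 at 0.05 (adjusted p = 0.256), and without SAFB1 KD replicate 2 FASN stood at 0.02 (adjusted p = 0.568). Without SLTM KD replicate 3 the difference of STARD4 was 0.12 (adjusted p = 0.038). TM7SF2 was the exception, at -0.26 (adjusted p = 3.27e-06). Thus the ordering of the single knockdowns was opposite for the reductase TM7SF2 and for these 8 genes.

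Triple KD was also set against each single knockdown. Against SAFB1 KD 6 of the 28 were higher and 13 lower (16.2% and 18.6% of all genes, 25.1% and 33.0% of those at 1 CPM or more). Against SLTM KD 9 were higher and 9 lower, 32.1% of the 28 each way (17.5% and 18.8% of all genes, 28.7% and 31.8% of those at 1 CPM or more), which is near the background. The log2 difference of MSMO1 was -0.74 against SAFB1 KD (adjusted p = 1.08e-26) and -0.79 against SLTM KD (adjusted p = 2.76e-28). That of SCAP was 0.33 (adjusted p = 1.6e-15) and 0.38 (adjusted p = 3.41e-18). The log2 change in triple KD less those of both single knockdowns added together was called above 0 for 6 members and below 0 for 9. The background was 9.48% and 11.9% of all genes and 16.4% and 21.7% of those at 1 CPM or more. This difference also takes in the knockdown of SAFB2. It takes in as well the higher SAFB2 in both single knockdowns and the higher SLTM in SAFB1 KD. It was -0.64 ± 0.0482 for MSMO1 (adjusted p = 4.45e-17), -0.35 for TM7SF2 (adjusted p = 4.26e-06), -0.34 for STARD4 (adjusted p = 2.25e-05), -0.26 for SCD (adjusted p = 8.56e-12), 0.38 for SCAP (adjusted p = 1.05e-11) and 0.27 for INSIG1 (adjusted p = 5.13e-08). SC5D and EBP, lower in SLTM KD and triple KD, were not among the 15 called.

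Scaled by the length of the canonical transcript, control levels ran from 1.27 CPM per kb for CYP51A1 to 169 CPM per kb for FASN. ACLY (156 CPM per kb), FDPS (123) and EBP (101) followed FASN, while INSIG2 (4.19), SREBF1 (6.8) and STARD4 (8.34) were low. SREBF2 stood at 28.3 CPM per kb, above SREBF1. MSMO1, at 20.9 CPM per kb, was close to its pathway neighbour NSDHL at 23.4 CPM per kb.

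Annotated copies of 5 members (IDI1, FDPS, CYP51A1, HSD17B7 and SCD) numbered 17. The most abundant was HSD17B7P2, at 1.91 CPM in control cells against 15.1 to 15.8 CPM for HSD17B7, and it was not called in triple KD (-0.14, adjusted p = 0.406). TM7SF2 abuts VPS51 on the same strand, with no exon base of its canonical transcript shared, and VPS51 rose (0.25, adjusted p = 1.31e-11) while TM7SF2 fell. The words GAAGAA on the sense strand, of the purine-rich kind that the study ties to SAFB binding, were counted over each gene body. All 28 members had a median of 0.397 per kb, the 13 called lower in triple KD 0.542 and the 9 called higher 0.365, against 0.452 over 16028 coding genes tested. The 13 lower genes were short, with a median gene body of 16.6 kb, and the 9 higher ones spanned a median of 40.7 kb, against 32.8 kb over coding genes. MSMO1 itself held 5 such words in 15.5 kb, at the 26.4 percentile of coding genes. These are descriptions of the called genes, with no test.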

How the data were processed

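Polyadenylated RNA from 12 HEK293 libraries was sequenced, and reads were trimmed, aligned to GRCh38 with STAR 2.7.9a and counted per gene, reverse-stranded, by the authors. The deposited values are raw read counts, 1 library per file, neither normalised nor pooled. Uniquely placed reads alone enter such counts, which bears on copies and on genes that share exons. Of 58780 gene IDs, 99% were matched to GENCODE release 44 for symbols and positions.

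The 26688 genes whose counts over the 12 libraries came to 10 or more were fitted with edgeR 4.0.16 in R 4.3.3, with TMM factors, 1 term for group, two-sided quasi-likelihood F tests and Benjamini-Hochberg adjustment over the whole table. Calls needed an adjusted p under 0.05. Intervals of 95% use the standard error with 8 residual degrees of freedom. The common biological coefficient of variation was 2.14%. Groups came from the sample titles. The script was tested on simulated data. Alternatives were RLE and upper-quartile scaling, filterByExpr or no filter, DESeq2 1.42.0, limma-voom (limma 3.58.1), the compared groups only, a replicate block and leaving out each library.

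The 28 members are named throughout. From each other list the up to 3 called genes with the smallest adjusted p in triple KD are named, with MBTPS1, MBTPS2 and SPRING1 always, and copies that passed the filter. The values of 1 listed gene are not reported here. Members and lists were chosen with earlier results of these data known. Motifs were searched in Python 3.11.15.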

Additional observations from a re-analysis of the deposited data

How the results depend on the processing

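Over 20 alternative settings (19 for the departure from the sum of single knockdowns), no member's value among the reported calls changed sign, and of 417 counts recomputed 18 moved by more than 1.5 times. In triple KD against control the number of members called stayed between 19 and 23. In SAFB1 KD against control it was 5, and 8 with a replicate block, while leaving out single libraries gave 3 to 5. The members called higher there were 3, with 1 without a filter on low counts, 5 with the replicate block and 1 to 3 when single libraries were left out. In SLTM KD against control 6 were called, all lower, and 3 under upper-quartile scaling, which also gave 5 in place of 8 higher in SAFB1 KD against SLTM KD. Why these counts moved was not tested. Same-numbered libraries deviated from their group means with correlations from -0.0289 to 0.164, not above 0.1 in every pair, so the numbers were not taken as pairs, although 10 of 12 libraries correlated best with their own number. In SAFB1 KD the replicate block added calls for IDI1 (0.07, adjusted p = 0.0157), SQLE (-0.07, adjusted p = 0.0378) and SREBF1 (0.09, adjusted p = 0.0461). With 3 libraries per group, small differences in the least abundant members, CYP51A1 and INSIG2, are the least certain.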
